A study of Paeonia lactiflora with 8 samples.

Results

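The genes described here are those whose RNA level in the root of herbaceous peony, Paeonia lactiflora, stood at least 2-fold above or at least 2-fold below the level in each of leaf, flower and fruit. They were chosen from a contrast of root with the mean of the leaf, flower and fruit means, tested with edgeR's quasi-likelihood test over all genes. A gene passed with a Benjamini-Hochberg adjusted p under 0.05 and a difference of at least 2-fold, and it was then called root-highest or root-lowest where the fitted root level also cleared every other organ by 2-fold. That margin is a description with no test of its own. Of 30177 assembled genes, 27939 were tested, and 1308 were root-highest and 889 root-lowest, 2197 in all.

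The root of herbaceous peony is a storage organ and the part used as a drug in Chinese medicine. It takes up water and mineral ions, stores sugar as starch, seals its inner tissues with suberin and lignin, and accumulates monoterpene glycosides such as paeoniflorin, the compound the study was about. Leaf is the main photosynthetic organ, and the shoot surface is covered by a cuticle of cutin and wax that most of the root lacks.

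Poly(A) RNA was sequenced from root, leaf and flower taken at the blossom period and from fruit taken at the young fruit period. Every organ had 2 biological replicates, which makes 8 libraries. Fruit differs from the other organs in its collection period too, so organ and period cannot be told apart there. The labels give no cultivar, plant age, genotype difference or treatment. Each organ is a mix of cell types, and fewer cells of a type and less RNA per cell cannot be told apart in such samples.

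The estimated counts per library ranged from 30399492 to 49421130. Replicates correlated across genes at 0.874 (root) to 0.914 (fruit), Pearson's r of log2 CPM over genes, which are not independent replicates. Several libraries stood apart from their partner. IDs named TAR1-A, after a transcript antisense to ribosomal RNA in yeast, held 41.4% of the flower replicate 2 counts and 5.86% of those of flower replicate 1, and 18.9% of root replicate 2 against 9.67% of root replicate 1. Genes of seed storage and oil bodies summed to 177117 CPM in fruit replicate 2 and 1628 CPM in fruit replicate 1, where CPM are counts divided by the TMM-scaled library size, times 1000000. Leaf markers (26 antenna, Rubisco and photosystem genes) summed to between 127 and 290 CPM in the root libraries and to at least 105655 CPM in the leaf libraries, and 17 of them were lower in root and 0 higher. Flower markers (12 genes) summed to between 94.7 and 151 CPM in root and 1601 to 2049 CPM in flower, and 4 passed as lower in root. The 8 genes bearing names of root regulators or root transporters did not mark the root as a group. They summed to 49.3 to 52.7 CPM in root and 158 to 218 CPM in flower, and AGL12, a MADS-box factor of the root, was the one that passed, at 10.9 and 16 CPM in root and 0.133 to 3.96 CPM elsewhere. Flower markers were low in leaf (214 and 246 CPM) and fruit (244 and 237 CPM) as well, so among these names the low leaf markers and AGL12 distinguished the root libraries, and the other root names did not pass.

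Across all genes tested, 1971 (7.05%) were higher in root and 1527 (5.47%) lower, so 56.3% of the calls were higher. With libraries scaled by their totals without the 20 most abundant genes, 74.4% of the calls were higher, and with limma on log2(TPM + 1) 68.4% were. The median log2 difference of all genes was 0.10 with TMM, 0.50 with total scaling and 0.37 with TPM, and the medians of gene lists below are to be read against it. Root-highest genes were 4.68% and root-lowest genes 3.18% of all genes tested. Leaving out 1 library reduced the root-highest genes to 541 (without root replicate 1), 642 and 655 (without leaf replicates 1 and 2), 706 and 807 (fruit), 854 (root replicate 2), 841 and 982 (flower). The root-lowest genes then numbered 523 without root replicate 1, 569 and 609 without leaf replicates 1 and 2, and at least 631 without any other library. With a library left out, its partner was assumed to vary like the other organs. In such a fit a named gene passed or kept its call on the contrast alone, and the 2-fold margin over each organ was not required. Of the root-highest genes 698 were also root-highest without root replicate 2 and 479 without root replicate 1.

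**Figure D1:**
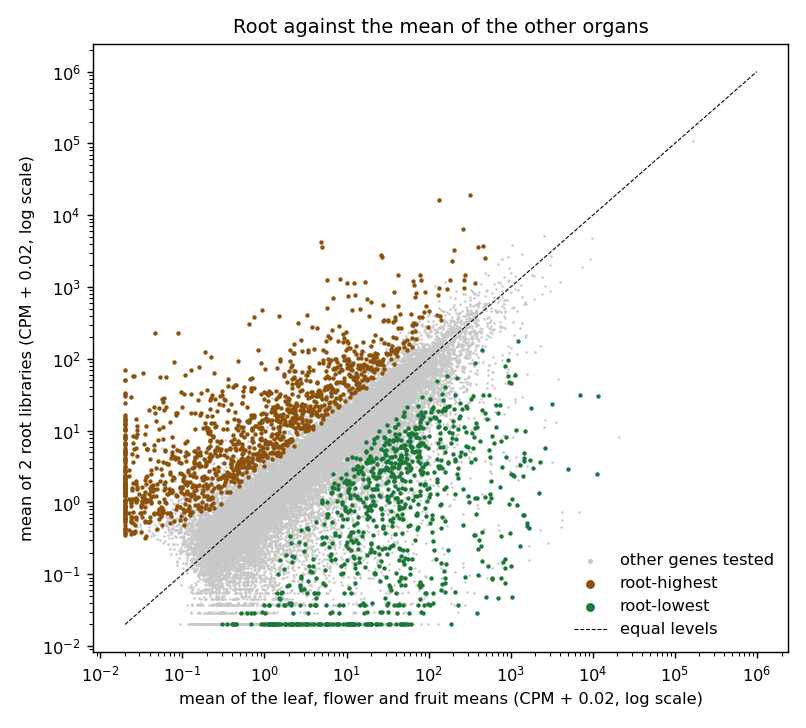
Mean level of each gene tested in the 2 root libraries (y axis) against the mean of the leaf, flower and fruit means (x axis), both in CPM plus 0.02 on log scales. The 1308 root-highest genes lie above the line of equal levels and the 889 root-lowest genes below it, and the row of points at the left edge and that at the bottom edge are genes with no count on that axis.

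The 2 classes differed in which of the other organs held the highest level. That organ is the nearest to root for a root-highest gene and the farthest from it for a root-lowest gene. Fruit was the next organ for 603 root-highest genes (46.1%), flower for 393 and leaf for 312, whereas fruit was the highest of the 3 other organs for 31.0% of all genes tested. An organ without counts was set to 3 counts here. That floor was highest in flower (0.0625 CPM, against 0.0329 in leaf and 0.0274 in fruit). The 120 root-highest genes with no count in leaf, flower and fruit were thus assigned to flower by the floor and not by a measured level. Among root-lowest genes, leaf held the highest level for 497 (55.9%), flower for 352 (39.6%) and fruit for 40 (4.50%). Over all genes tested, leaf was the highest of the 3 for 34.7% and flower for 34.3%. Of the 663 genes that passed as higher but missed the margin, 420 had fruit as the nearest organ, and fruit was the lowest other organ for 358 of the 638 lower genes that missed it.

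Both root libraries lay above all 6 others for 1177 root-highest genes and below them for 818 root-lowest genes. Such separation was met by 11.3% (above) and 7.12% (below) of all genes tested, and the choice of these genes favours it. No count at all was seen in leaf, flower and fruit for 120 root-highest genes, and none in root for 121 root-lowest genes. The fitted margin reached 16-fold for 410 root-highest and 232 root-lowest genes. Neither symbol nor description was given for 42.2% of root-highest, 40.5% of root-lowest and 49.9% of all genes tested. Assembled root-lowest genes had a median length of 1035 bases, root-highest genes 662.5 bases and all genes 647 bases.

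Root-highest genes took 24.8% of the counts of root replicate 1 and 9.96% of root replicate 2, and between 0.420% and 2.18% of any other library. Root-lowest genes took 30.3% and 28.5% of the leaf libraries, 12.4% and 6.64% of the flower libraries, 5.56% and 2.42% of the fruit libraries, and 0.372% and 0.598% of the root libraries.

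Among annotated root-highest genes, the highest deposited TPM (a scale per transcript length, on which genes can be compared) in root belonged to HSP26-A, described as a glutathione S-transferase, at a mean of 16638 TPM. ADH2, an alcohol dehydrogenase of ethanolic fermentation, followed at 13308 TPM, then GASA14, of the gibberellin-regulated GASA peptides (9558 TPM), STH-2, a defence protein name from potato (8258 TPM), and TPRP-F1, a proline-rich protein name from tomato (6728 TPM). PEX3 (5060 TPM), 3 IDs named for the small heat shock protein HSP18.1 (2296 to 4163 TPM) and the sucrose synthase SS (2335 TPM) completed the 10.

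HSP26-A was measured at 30648 and 1834 CPM in root, 54.3 and 100 in leaf, 185 and 159 in fruit and 174 and 120 in flower. Its log2 difference was 7.02 (SE 0.92, edgeR adjusted p = 0.0076), and root replicate 1 was far above replicate 2, which itself exceeded the 6 other libraries. ADH2 reached 31283 and 6415 CPM in root against at most 967 CPM elsewhere, a log2 difference of 6.62 (SE 0.73, edgeR adjusted p = 0.00468). GASA14 stood at 4793 and 392 CPM in root and at no more than 79.8 CPM elsewhere (log2 difference 8, SE 1.08). For TPRP-F1 the root libraries held 6611 and 543 CPM, fruit 18.8 and 7.91, and the leaf and flower libraries at most 1.08 (log2 difference 10.87, SE 1.06, edgeR adjusted p = 0.00343). These 4 genes passed with each of the 8 libraries left out in turn. In STH-2 the groups overlapped, with 6531 and 932 CPM in root and 1774 and 796 CPM in fruit, and its call (edgeR adjusted p = 0.0174) was lost without root replicate 1 (0.112), either leaf library (0.0532 and 0.0636) or either fruit library (0.0559 and 0.0598).

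**Figure D2:**
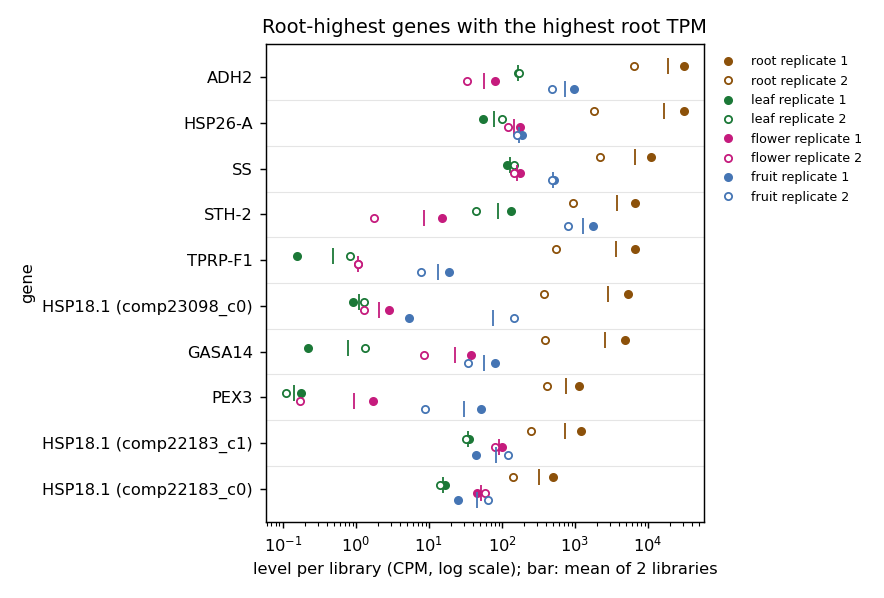
Levels of the 10 annotated root-highest genes with the highest root TPM in the 8 libraries, in CPM on a log axis, with filled points for replicate 1, open points for replicate 2 and a bar at the mean of 2 libraries. In every one of the 10 genes root replicate 1 lies above replicate 2, and in STH-2 fruit replicate 1 (1774 CPM) lies above root replicate 2 (932 CPM).

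The largest margins among well-expressed annotated root-highest genes belonged mostly to other genes, TPRP-F1 excepted, several of them enzymes of specialised metabolism. CYP82A3 (comp7605_c1), a cytochrome P450, was at 430 and 33.2 CPM in root and at no more than 0.111 CPM in any other library, 4190-fold above leaf. Part of the same assembly component, CYP82C4 (comp7605_c0), held 60.7 and 4.43 CPM in root and no count elsewhere, at least 521-fold higher, and a further ID named CYP82A3 (comp25328_c0) held 94.8 and 7.6 CPM, at least 818-fold higher, both against a floor of 3 counts over the flower libraries. CYP82C4 lost its call without root replicate 1. CEL1, an endoglucanase that cuts cell wall glucans, was even between the root libraries, at 199 and 260 CPM against at most 0.278 CPM elsewhere, 1653-fold above fruit. ESC, an AT-hook DNA-binding protein name from Arabidopsis, was read at 77.5 and 39.3 CPM in root and at 0.0293 CPM in 1 fruit library alone among the others, at least 933-fold above flower. LAR (leucoanthocyanidin reductase, which makes flavan-3-ols) stood 874-fold above fruit, and SALAT, an acyltransferase name from poppy, stood 335-fold above leaf. GLP6, a germin-like protein, was 274-fold and TPRP-F1 268-fold above fruit, and GLC1 was 251-fold above leaf.

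The genes that convert sucrose to starch were among the most abundant root-highest genes. Of 45 starch genes tested, 13 were higher and 4 lower in root. Root-highest were 11 (24.4% against 4.68% of all genes) and root-lowest 3 (6.67% against 3.18%). The list's median log2 difference was 1.18. SS, which splits sucrose for starch synthesis, was at 10849 and 2212 CPM in root, 116 and 145 in leaf, 522 and 481 in fruit and 175 and 145 in flower (log2 difference 4.90, SE 0.57, edgeR adjusted p = 0.00536). WAXY (comp22920_c0), a granule-bound starch synthase name, followed at 5886 and 767 CPM in root and at most 429 CPM elsewhere (4.23, SE 0.66). The ADP-glucose pyrophosphorylase subunit AGPP, which makes the substrate of starch synthase, was at 2004 and 511 CPM in root and 325 and 394 CPM in leaf (3.14, SE 0.48, edgeR adjusted p = 0.0107). Root exceeded every other library in all 3 genes, and each passed with any library left out.

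All 11 root-highest starch genes were higher in root replicate 1 than in replicate 2, with a median log2 ratio of 2.52. Without root replicate 1, 7 starch genes were higher and the list median was 0.48, and without root replicate 2 they were 14 and 1.65. The lower members included a second WAXY ID (comp17230_c0), at 0.547 and 0.479 CPM in root and 109 and 64.9 CPM in leaf, which passed with each library left out. AMY1.1, an alpha-amylase that degrades starch, was lower too (−4.02, SE 0.76), with levels of 102 and 53.4 CPM in fruit and under 1 CPM in every other library; it overlapped between root and flower, and its call was lost without root replicate 1, leaf replicate 1 or fruit replicate 1. A pair of beta-amylases named BAM3 made up the rest. The less abundant one (comp28769_c0) had 1 count over both root libraries and lost its call without root replicate 1 (edgeR adjusted p = 0.0638). The other one (comp23296_c0) was named after its values were seen because so few starch genes were lower, and it had 7.95 and 21.9 CPM in root against 312 to 872 CPM in leaf and flower and 27.3 and 8.37 CPM in fruit.

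Raffinose family sugars are galactosyl sucroses used for transport and storage. Of 12 genes for their synthesis 4 were root-highest (33.3% against 4.68% of all genes) and 1 root-lowest (8.33% against 3.18%). The list's summed level was not highest in root, and both leaf libraries lay above every other library. The IDs named stachyose synthetase or raffinose synthase went both ways. RFS2 (comp22804_c0) was at 455 and 252 CPM in root and 16.8 to 99.7 CPM elsewhere (log2 difference 3.30, SE 0.48), RFS1 at 122 and 76.1 CPM in root with fruit next at 12.2 and 24.8 CPM (4.80, SE 0.66). A second RFS2 ID (comp13796_c0) showed the opposite order, with 0.264 and 0 CPM in root and 86 and 162 CPM in leaf (−6.97, SE 1.30). RFS5 and STS1, the latter named after its values were seen, were read mainly in root replicate 2 (28.6 and 10.3 CPM against 5.64 and 0.831 in replicate 1), and RFS5 lost its call without that library (edgeR adjusted p = 0.103).

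Laccases and class III peroxidases are secreted oxidases; both are known for polymerising lignin, and peroxidases for making hydrogen peroxide as well. Of 18 laccases tested, 11 were higher and 0 lower, with 10 root-highest (55.6%). Of 37 peroxidases 16 were higher and 2 lower, with 14 root-highest (37.8%) and 1 root-lowest (2.70% against 3.18% of all genes). The median log2 difference was 6.59 over laccases (5.18 with organs without counts set to the floor of 3 counts) and 3.35 over peroxidases. With a library left out, 8 (without root replicate 1) to 10 laccases were higher, and 8 (without root replicate 2) to 17 (without flower replicate 2) peroxidases. The table describes these laccases with the KEGG term of a nitrite reductase, and the symbol was used here.

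The laccase LAC14 (comp17050_c0) was at 157 and 81.5 CPM in root, 0 in both leaf libraries, 4.88 and 0.283 in flower and 6.44 and 2.20 in fruit, 27.6-fold above fruit (edgeR adjusted p = 0.00911). A second LAC14 ID (comp20550_c0) had 185 and 17.5 CPM in root with fruit next at 3.67 and 5.42 CPM, and another (comp23139_c0) 239 and 99.7 CPM with fruit at 51.9 and 36.3 CPM (log2 difference 5.64, SE 0.45). Root exceeded every other library in the 3 IDs, and fruit was the next organ for 6 of the 10 root-highest laccases. The laccases' summed level was nevertheless not highest in root, with 926 and 606 CPM there, 3314 and 1658 CPM in fruit and 1631 and 394 CPM in flower.

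The peroxidase with the highest mean level, PER42, was at 3630 and 1385 CPM in root, 1109 and 632 in leaf, 367 and 706 in fruit and 9.64 and 106 in flower (log2 difference 3.06, SE 0.79, edgeR adjusted p = 0.0491). Its call was lost without either root, leaf or fruit library, with edgeR adjusted p from 0.0714 to 0.274. PER51 held 17.9 and 38.9 CPM in root and 13.6 and 6.76 CPM in fruit, with at most 0.0442 CPM in leaf and flower, and a peroxidase with a grape locus name (comp20735_c0) 10.8 and 68.8 CPM in root and at most 1.65 CPM elsewhere, 34.8-fold above fruit. Both passed with each library left out. Of the 14 root-highest peroxidases 10 were higher in root replicate 2, the reverse of the starch genes. PER17 was root-lowest, at 4.05 and 4.28 CPM against 9.20 to 44.4 CPM elsewhere (−2.36, SE 0.53), a call lost in 6 of the 8 fits with a library left out. PER47, named after its values were seen, passed as lower without meeting the margin.

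Suberin is the polyester of fatty acids and ferulate that seals endodermis and periderm. Of 25 suberin and barrier genes, 6 were higher in root, all of them root-highest (24%), and 0 were lower. HHT1 (comp11121_c0), which attaches ferulate to the fatty chains, was at 10.8 and 30.2 CPM in root and was read elsewhere in fruit replicate 2 alone, at 0.195 CPM, 210-fold lower. A second HHT1 ID (comp12314_c0) had 2.53 and 19 CPM in root and no count elsewhere, at least 172-fold higher against 3 counts over the flower libraries, and its call was lost without root replicate 2 (edgeR adjusted p = 0.0543). FAR2, a fatty alcohol-forming reductase, was at 21.2 and 15 CPM in root and 0.176 to 7.65 CPM elsewhere (log2 difference 4.20, SE 0.51, edgeR adjusted p = 0.00608). Named after their values were seen, CYP86A1 and CYP86B1, which oxidise the fatty chains, had 1.56 and 9.48 CPM and 0.527 and 3.20 CPM in root, with at most 0.0585 CPM for CYP86A1 and no count for CYP86B1 elsewhere. The transporter ABCG6, also named afterwards, had 2.33 and 9 CPM in root and overlapped flower, at 3.14 and 2.38 CPM. FAR2 excepted, the 6 genes were higher in root replicate 2, with a median log2 ratio of replicate 1 to replicate 2 of −2.15. Without that replicate 2 suberin genes were higher and the list median was −0.07; without replicate 1 they were 5 and 1.72.

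Enzymes that remodel pectin and xyloglucan in the wall gave 20 higher and 5 lower of 106 tested. Of these, 18 were root-highest (17%) and 4 root-lowest (3.77% against 3.18% of all genes). The list median was −0.20, below that of all genes, and 0.17 under total scaling. Root-highest members were led by CEL1 and by a polygalacturonase (At1g48100), which hydrolyses pectin, at 207 and 566 CPM in root and at most 2.53 CPM elsewhere (log2 difference 10.48, SE 0.54, edgeR adjusted p = 0.00199). The pectinesterase PME47 was at 483 and 94.5 CPM in root and 40.0 CPM in fruit replicate 2, and its call (edgeR adjusted p = 0.0136) was lost without root replicate 1 (0.0603) or either leaf library (0.0575 and 0.0571). XTH6, a xyloglucan transferase, was root-lowest at 12 and 35.5 CPM against 11914 and 5537 CPM in flower, and so was PME53 at 0.730 and 0.394 CPM against 229 and 379 CPM in flower. Calls of XTH6 and PME53 were lost when either root library was left out. FH5, an ID described as a pectinesterase under the name of a formin, stayed lower in each fit (−3.81, SE 0.40).

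Mineral ion and water transporters, which carry nutrients into and through the plant, were root-highest at a share near that of all genes. Of 249 tested, 23 were higher and 17 lower, with 14 root-highest (5.62%) and 13 root-lowest (5.22%), and the list median was −0.11 (0.27 under total scaling). POT5, a potassium uptake permease, was at 32.8 and 155 CPM in root and at most 1 CPM elsewhere (log2 difference 8.25, SE 0.87, edgeR adjusted p = 0.00414). The nitrate transporter NRT2.4 held 10.8 and 72.4 CPM in root, 6.13 and 3.68 CPM in leaf and less in flower and fruit (4.51, SE 0.61). Both passed with each library left out, and both were higher in root replicate 2, as were 9 of the 14. FRO6, a ferric reductase name, was an exception at 30.4 and 2.40 CPM in root, with leaf at 1.88 and 1.76 CPM, and its call (edgeR adjusted p = 0.0282) was lost in 7 of the 8 fits with a library left out (0.062 to 0.604), root replicate 2 being the exception.

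The root-lowest transporters included names of plastid carriers. PHT2-1, the phosphate transporter of plastids in Arabidopsis, was at 10.6 and 10.8 CPM in root, 116 and 108 in leaf, 29.8 and 16.5 in fruit and 98.1 and 95.2 in flower (−2.56, SE 0.33). FRO7, the chloroplast ferric reductase of Arabidopsis, was at 0.0203 and 0.0856 CPM in root and 405 and 391 CPM in leaf (−9.77, SE 1.55, edgeR adjusted p = 0.0121, and 0.0711 without root replicate 1). The oligopeptide transporter OPT1 was lowest in root, at 0.0405 and 0.120 CPM, and highest in flower, at 153 and 149 CPM (−7.56, SE 0.53, edgeR adjusted p = 0.00254). With 1 library left out, 7 (without leaf replicate 1) to 16 (without root replicate 2) of the 249 genes were higher and 6 (without root replicate 1) to 12 lower.

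ABC transporters, pumps that move lipids, hormones and specialised metabolites, gave 25 higher and 13 lower of 154, with 20 root-highest (13%) and 9 root-lowest (5.84%). ABCC3, a vacuolar conjugate pump name, was at 159 and 120 CPM in root and 3.70 to 21.7 CPM elsewhere (log2 difference 3.93, SE 0.35, edgeR adjusted p = 0.00292). ABCB8 reached 55.2 and 4.57 CPM in root and at most 1.03 CPM elsewhere, and ABCB11 159 and 337 CPM in root against 133 and 98.3 CPM in fruit, a call lost without root replicate 2. ABCB2 was root-lowest by a wide margin, at 0.243 and 0 CPM in root and 401 and 273 CPM in leaf, 217-fold below fruit. ABCG11, an exporter of cuticle lipids in Arabidopsis, was root-lowest too, at 3.43 and 3.35 CPM against 12.9 to 78.9 CPM elsewhere (−3.42, SE 0.42). Without leaf replicate 2 the higher count was 8 and without flower replicate 2 it was 21.

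Paeoniflorin is a monoterpene glycoside, built from isopentenyl units of the MVA pathway of the cytosol or the MEP pathway of the plastid, a terpene synthase, P450 oxidations and glycosylation. Of 14 MVA genes 3 were higher in root and 0 root-highest, where 7.05% of all genes were higher. The MVA list's summed level was highest in fruit, at 6195 and 2819 CPM, against 1019 and 1415 CPM in root. The 3 higher genes, named after their values were seen, were all described as HMG-CoA reductase, the committed step, and fruit stood at or near the root level. The more abundant ID (comp12994_c0) had 16 and 18.7 CPM in root, 0.0885 and 0.152 in leaf, 18.6 and 9.49 in fruit and 2.08 and 1.02 in flower (log2 difference 3.64, SE 0.40, edgeR adjusted p = 0.00448). HMG1 had 5.88 and 7.96 CPM in root and 8.02 and 6.69 CPM in fruit, and HMG2 1.72 and 2.69 CPM in root and 2.99 and 1.64 CPM in fruit. Without root replicate 2 a single MVA gene was higher, and without leaf replicate 1 there were 4.

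Of 10 MEP genes 1 was higher and root-highest, an ID with a rice locus name described as deoxyxylulose-phosphate synthase (comp20919_c0), the entry enzyme. It was at 289 and 28.5 CPM in root, 57.4 and 93.4 in leaf, 33.7 and 9 in flower and under 1 CPM in fruit, and root replicate 2 lay below both leaf libraries. Its call (edgeR adjusted p = 0.0191) was lost without root replicate 1 (0.206), either leaf library (0.0623 and 0.0568) or either fruit library (0.0654 and 0.0598). The list median was 1.30, and it was −0.18 without root replicate 1 and 2.02 without root replicate 2, where 6 MEP genes were higher. Among 7 isopentenyl isomerase and prenyltransferase genes, 0 were higher and 1, GGR, was root-lowest (14.3% against 3.18% of all genes). GGR was at 3.06 and 7.48 CPM in root against 36 to 125 CPM elsewhere (−3.75, SE 0.54, edgeR adjusted p = 0.00933).

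Terpene synthases gave 5 root-highest (19.2% against 4.68% of all genes) and 1 root-lowest (3.85% against 3.18%) of 26, with a median of 0.66. The root-highest IDs all carry the KEGG description of a cineole synthase, which groups terpene synthases by likeness and does not give the product. The most abundant (comp15294_c0) was at 1762 and 186 CPM in root, 207 and 585 in leaf and at most 7.2 CPM in flower and fruit (log2 difference 6.04, SE 0.75, edgeR adjusted p = 0.0064). Root replicate 2 lay below both leaf libraries in this gene. By contrast comp23214_c0 had 145 and 304 CPM in root with fruit next at 20.9 and 23.6 CPM (5.56, SE 0.46), and comp23266_c0 153 and 145 CPM in root with 37.6 and 109 CPM in fruit (2.57, SE 0.37). These 3 passed with each library left out. The other root-highest IDs, comp1568_c0 and comp94327_c0, were named after their values were seen and reached 3.06 and 2.70 CPM in root replicate 1. The root-lowest ID (comp19097_c0) had 42.3 and 907 CPM in flower and 0.0405 and 0.0342 CPM in root, and its call was lost without either root library (edgeR adjusted p = 0.149 and 0.128), either leaf library (0.0613 and 0.0615) or fruit replicate 1 (0.0645). With root replicate 1 left out, 3 terpene synthases were higher and 1 root-highest.

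Cytochrome P450 enzymes oxidise many specialised metabolites. Of 144 tested, 47 were higher and 7 lower, with 29 root-highest (20.1%) and 6 root-lowest (4.17%). Besides the CYP82 genes above, CYP71A1 (comp11656_c0) had 499 and 45.2 CPM in root and 86.3 and 172 CPM in leaf (log2 difference 5.22, SE 0.74), so that root replicate 2 lay below leaf, and CYP76A2 had 242 and 92.4 CPM in root and 39.9 and 117 CPM in leaf. CYP76A2 lost its call in 6 of the 8 fits with a library left out (edgeR adjusted p = 0.237 without root replicate 1). The root-lowest members included CYP86A2, an enzyme of cutin synthesis in Arabidopsis, at 0.324 and 0.240 CPM in root and 997 and 1277 CPM in flower, CYP94A1 (−3.48, SE 0.44) and a second CYP71A1 ID, comp21911_c0 (−3.25, SE 0.53). The higher count was 26 without leaf replicate 1 and 34 without flower replicate 2, the lowest and highest with a library left out. The list median was 0.65. Its summed level did not stand above fruit, with 10929 and 8513 CPM in root and 16106 and 9994 CPM in fruit.

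UDP-glycosyltransferases, the enzymes that put sugars on metabolites, gave 22 higher and 11 lower of 107, with 12 root-highest (11.2%) and 8 root-lowest (7.48%). UGT85A3 was at 854 and 102 CPM in root and at most 1.95 CPM elsewhere (log2 difference 9.49, SE 1.06, edgeR adjusted p = 0.00472), and GT5 at 441 and 192 CPM in root with fruit next at 7.67 and 6.49 CPM (8.71, SE 0.45, edgeR adjusted p = 0.00199). Both passed with each library left out. UGT91A1 was at 786 CPM in root replicate 1 and 66.1 CPM in root replicate 2, below both leaf libraries (142 and 77.2 CPM), and its call (edgeR adjusted p = 0.0326) was lost in 7 of the 8 fits, root replicate 2 being the exception (0.0626 to 0.574). On the low side UGT74F2 had 6.45 and 38.3 CPM in root and 2281 and 1197 CPM in flower, and its call was lost without either leaf library, either fruit library or flower replicate 1 (edgeR adjusted p = 0.051 to 0.0588). GT6, with the same description as GT5, had 1 count over the root libraries and 125 and 95.1 CPM in flower. It stood 359-fold below fruit, with a 95% counting interval of 64.5 to 14194. Without fruit replicate 1, 5 of these genes were higher and without flower replicate 2, 14.

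Flavonoid genes include those of the flavan-3-ols and of the flavonols. Of 38 tested 6 were higher and 4 lower, with a median of 0.07. Of these, 4 were root-highest (10.5% against 4.68% of all genes) and 3 root-lowest (7.89% against 3.18%). Higher in root were BAN, the anthocyanidin reductase of flavan-3-ol synthesis, at 2226 and 33 CPM in root, 9.56 and 58.0 in fruit and at most 5.84 elsewhere, an ID described as chalcone synthase (comp16436_c0), the entry enzyme, at 2532 and 84.7 CPM in root and at most 22 elsewhere, and LAR at 167 and 11.7 CPM in root and at most 0.152 elsewhere. The chalcone synthase (log2 difference 8.27, SE 1.16, edgeR adjusted p = 0.00893) and LAR passed with each library left out. BAN overlapped between root and fruit, and its call (edgeR adjusted p = 0.0168) was lost without root replicate 1 (0.158), either leaf library or either fruit library (0.0534 to 0.0712). The other higher IDs, named after their values were seen, were DIOX2, CYP75B2 and SRG1. DIOX2 had 1.24 and 9.82 CPM in root and more in fruit, at 32.5 and 15.6 CPM. CYP75B2 had 42 and 7.7 CPM in root and 15.8 and 18.4 CPM in leaf. SRG1, itself described as a flavonol synthase, had 0.649 and 22 CPM in root and 2.43 and 2.83 CPM in fruit, so IDs of that description went both ways. Lower in root were the flavonol synthases FLS, at 0.162 and 0.103 CPM in root and 988 and 1410 CPM in flower for comp15278_c0 (−9.63, SE 0.92, edgeR adjusted p = 0.0034) and no count in root for comp1931_c0, at least 21.3-fold below fruit against 3 counts over the root libraries. Another FLS ID (comp7387_c0), named afterwards, was lower without meeting the margin. CHI1, a chalcone isomerase, had no count in root and 37.4 and 22.7 CPM in flower, at least 76.3-fold below fruit. Without root replicate 2 the list median was −0.89 and without replicate 1 it was −0.32.

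Heat shock proteins and chaperones gave 34 higher and 9 lower of 130, with 30 root-highest (23.1%) and 6 root-lowest (4.62%), and a median of 0.39. HSP70 (comp16710_c0) was at 2598 and 392 CPM in root, 2.26 and 1.83 in leaf, 45.0 and 206 in fruit and 0.0990 and 0.226 in flower (log2 difference 8.77, SE 0.85, edgeR adjusted p = 0.00343). The HSP18.1 ID comp23098_c0, a small heat shock protein, had 5241 and 374 CPM in root, 5.33 and 146 in fruit and at most 2.87 elsewhere (8.97, SE 1.30, edgeR adjusted p = 0.00966). Both genes passed with each library left out, while the other HSP18.1 IDs, comp22183_c0 and comp22183_c1, lost their calls without root replicate 1 (edgeR adjusted p = 0.0537 and 0.0709). CLPB1, a disaggregating chaperone, reached 1489 and 464 CPM in root against 121 to 381 CPM elsewhere and passed in 1 of 8 such fits. Of the 30 root-highest members 27 were higher in root replicate 1, by a median log2 ratio of 2.12, and without that library 4 of the 130 were higher, against 25 without root replicate 2. The lower genes were DnaJ co-chaperones among others, such as dnajb6-a at 13.5 and 15 CPM in root and 210 and 148 CPM in flower, and a dnaJ ID described as a ferredoxin (comp21001_c0). The call of dnajb6-a was lost in 4 of the 8 fits (edgeR adjusted p = 0.0503 to 0.125), either root library included. That of comp21001_c0 was lost without any one of the leaf, flower and fruit libraries (0.0548 to 0.0652).

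Ethanolic fermentation and the low-oxygen response gave 4 higher of 21 and 0 lower, with 2 root-highest (9.52% against 4.68% of all genes) and a median of 0.90. Beside ADH2, the ethylene response factor RAP2-3, known in Arabidopsis from the response to low oxygen, was root-highest, at 157 and 97.4 CPM in root, 53.5 and 33.9 in fruit and 0.170 to 3.87 in leaf and flower (log2 difference 5.30, SE 0.53, edgeR adjusted p = 0.00366). The other 2, named after their values were seen, were a second alcohol dehydrogenase (At1g32780), at 305 and 67.0 CPM in root and 80.7 and 165 in leaf, and ADH1, at 94.2 and 67.3 CPM in root, 631 and 292 in fruit and at most 13.2 elsewhere. ADH1 and ADH2 thus had different peak organs. Of the 21, 2 were higher without root replicate 1 and 9 under total scaling.

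Histones package DNA, and replication proteins copy it before cell division. Of 126 histone and replication genes 38 were higher and 2 lower, with 34 root-highest (27.0%), 0 root-lowest and a median of 1.63. HTR2, a histone H3, was at 270 and 124 CPM in root, 5.15 and 4.96 in leaf, 3.34 and 16.7 in fruit and 15.2 and 10.8 in flower (log2 difference 4.50, SE 0.54, edgeR adjusted p = 0.00604). A histone H2A (comp23168_c1) was at 558 and 262 CPM in root and 220 and 174 CPM in flower (1.82, SE 0.37, edgeR adjusted p = 0.0243). HTR2 passed with each library left out, and the H2A in 2 of 8 fits. Fruit was the next organ for 25 of the 34. Exceptions were a pair of H2B IDs (At1g07790 and H2B-1), named after their values were seen, which had 2.15 to 4.07 CPM in root and 49.1 to 82 CPM in flower. The count of higher genes was 7 without root replicate 1, where the median was 1.16, and 36 without fruit replicate 2.

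Cyclins and mitotic genes, which drive cell division, gave 14 higher and 1 lower of 57, with 12 root-highest (21.1%). TOP2, the topoisomerase that untangles chromosomes, had 38.2 and 33.8 CPM in root, 0.307 and 4.30 in fruit and at most 1.37 elsewhere (log2 difference 5.83, SE 0.93, edgeR adjusted p = 0.0125), and MAP65-6, a microtubule bundling protein, 48.5 and 73.6 CPM in root and 4.87 to 23.7 elsewhere (2.24, SE 0.29). Both passed with each library left out. PCNA, the replication clamp, stood at 46.8 and 26.9 CPM in root and reached 26.9 CPM in fruit replicate 2 as well, and its call (edgeR adjusted p = 0.0306) was lost without either root library (0.168 and 0.0563), either leaf library or fruit replicate 1 (0.0596 to 0.0798). The lower gene, CDC25, was named after its values were seen, and it had 197 and 123 CPM in flower. Without root replicate 1 the higher count was 2 and without fruit replicate 2 it was 11.

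Argonautes, RNA-dependent RNA polymerases and DNA methyltransferases, the machinery of small RNA silencing, gave 17 higher and 0 lower of 47, with 12 root-highest (25.5%) and a median of 1.46. RDR1, a polymerase of antiviral silencing in Arabidopsis, was at 137 and 102 CPM in root and 16.4 to 52.1 elsewhere (log2 difference 1.73, SE 0.25, edgeR adjusted p = 0.00914). AGO4, the argonaute of RNA-directed DNA methylation, was at 140 and 114 CPM in root, 38.9 and 78.9 in fruit, 46.6 and 49.9 in leaf and 6.44 and 8.89 in flower (2.18, SE 0.30). Root differed from the nearest organ by 2.50-fold in RDR1 and by 2.15-fold in AGO4, smaller margins than those of the wall and storage genes. RDR6 (1.48, SE 0.35, edgeR adjusted p = 0.0378) passed in 1 of 8 fits with a library left out. The higher count was 3 without leaf replicate 1 and 9 without flower replicate 2.

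Transcription factors whose relatives act in root development, mainly GRAS, LBD, bHLH and WOX proteins, gave 26 higher and 5 lower of 79, with 21 root-highest (26.6%) and 4 root-lowest (5.06%) and a median of 1.02. BHLH68 was at 79.8 and 49.1 CPM in root and 8.35 to 16.7 CPM elsewhere (log2 difference 2.35, SE 0.24, edgeR adjusted p = 0.004). The scarecrow-like SCL1 ID comp21841_c0 had 32.1 and 27.3 CPM in root, no count in leaf and 7.33 and 9.81 CPM in fruit, and SCL1 (comp19349_c0) 148 and 103 CPM in root and 19.1 to 70.7 elsewhere. BHLH68 and comp21841_c0 passed with each library left out, and comp19349_c0 in 3 of 8 fits. The lower members were 3 IDs named JKD, a zinc finger partner of SCARECROW in Arabidopsis roots, and SCL9 and SCL32, the last 2 named after their values were seen. JKD (comp17574_c0) was at 0.324 and 0.0856 CPM in root, 25.4 and 17.7 in leaf and 20.5 in fruit replicate 2 (−5.94, SE 1.11), and its call was lost without either root library (edgeR adjusted p = 0.0618 and 0.0729). Without root replicate 1, 11 of the 79 were higher, and without flower replicate 2, 23.

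Genes that act in the recognition of soil microbes gave 4 higher of 18 and 0 lower. All 4 were root-highest (22.2% against 4.68% of all genes), and the list median was 0.69. CCAMK and DMI3 are both names of the calcium- and calmodulin-dependent kinase required for root symbiosis in legumes. CCAMK was at 6.08 and 11.2 CPM in root and 0 to 1.29 CPM elsewhere (log2 difference 4.86, SE 0.76, edgeR adjusted p = 0.0117, and 0.0527 without root replicate 2), and DMI3, named after its values were seen, at 4.58 and 7.03 CPM in root and 0 to 1.05 CPM elsewhere. LYM1 and LYK5, LysM proteins that bind chitin or peptidoglycan, were at 79.0 and 25.9 and at 11.4 and 10.5 CPM in root, 3.01-fold and 3.93-fold above the next organ. LYK5 passed in 2 of 8 fits with a library left out, LYM1 in 5. Defence genes gave 15 higher and 4 lower of 108, with 6 root-highest (5.56% against 4.68% of all genes) and 4 root-lowest (3.70% against 3.18%). With a library left out, 4 (without fruit replicate 2) to 10 were higher and 0 (without root replicate 1) to 3 lower. PR-1, a secreted antimicrobial protein, was the clearest of the higher ones, at 187 and 81.5 CPM in root and at most 3.16 CPM elsewhere (9.05, SE 0.79, edgeR adjusted p = 0.00287), with the call kept in each fit. The defence list's summed level was highest in flower, at 36829 and 18532 CPM, against 11506 and 4104 CPM in root.

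Auxin genes gave 14 higher and 8 lower of 96, with 13 root-highest (13.5%) and 3 root-lowest (3.12% against 3.18% of all genes). Their median was 0.31, and it was −0.05 without root replicate 1. ARF4, an auxin response factor, was at 72.1 and 52.8 CPM in root and 2.66 to 10 CPM elsewhere (log2 difference 3.20, SE 0.37, edgeR adjusted p = 0.00531). IAA27, a repressor of auxin response, had 324 and 53.8 CPM in root and 53.7 CPM in fruit replicate 1, and its call (edgeR adjusted p = 0.0258) was lost without root replicate 1 (0.283), flower replicate 2 or any leaf or fruit library (0.0601 to 0.0764). Root-lowest were the carriers PIN8, at 0.122 and 0.376 CPM in root and 13.8 to 26.1 CPM elsewhere (−6.27, SE 0.61), and LAX3, at 438 and 253 CPM in flower and under 1 CPM in root and fruit. Root and fruit overlapped in LAX3, at 0.284 and 0 CPM in root and 0.205 and 0.683 CPM in fruit. LAX3 lost its call without leaf replicate 1 or flower replicate 1 (edgeR adjusted p = 0.0554 and 0.0535). Cytokinin, gibberellin, abscisic acid and ethylene genes gave 17 higher and 9 lower of 153, with 6 root-highest (3.92%) and 5 root-lowest (3.27%). The higher count fell to 1 without root replicate 2 and was 14 without flower replicate 2, and the lower count was 2 without root replicate 1 and 7 without fruit replicate 2. ERF061 had a large margin, at 0.0405 and 0 CPM in root and 11 to 18.9 CPM in each other library, 571-fold below flower with a 95% counting interval of 158 to 4715 from 2 root counts.

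Some lists served as a comparison. Cytosolic ribosomal proteins gave 3 higher and 2 lower of 234, a median of −0.10 (0.28 under total scaling) and a single root-highest gene, RPS2D, at 181 and 112 CPM in root and 101 CPM in fruit replicate 1, which passed in 1 of 8 fits with a library left out. The other 4, named after their values were seen, were RPL11 and RPL14A (higher) and APS1 and RPS21C (lower), with log2 differences of 1.08, 1.07, −1.27 and −1.06. Actin and tubulin gave 4 root-highest of 33 (12.1% against 4.68% of all genes), the tubulins TUBA, TUBA2 and 2 IDs named TUBB1. That share was near those of ABC transporters, auxin genes and UDP-glycosyltransferases. The list median was 0.40, and it was negative without root replicate 1. Seed storage and oil body genes gave 6 root-highest (19.4%) and 1 root-lowest (3.23%) of 31, but the list median was −1.14, below that of all genes. The leading higher ones were germin-like proteins that share a domain with storage proteins, At5g39110 at 305 and 480 CPM and GLP6 at 64.0 and 183 CPM in root, both at most 2.57 CPM elsewhere.

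**Figure D3:**
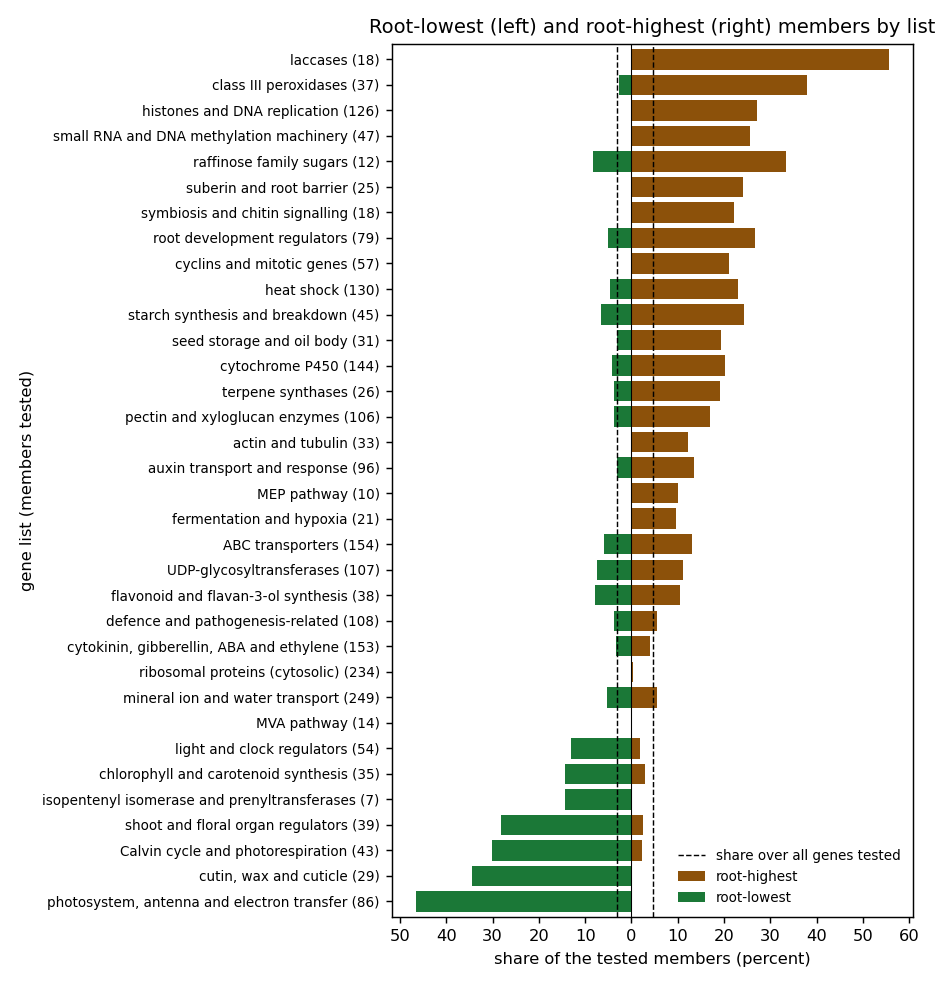
Share of the tested members of each gene list that were root-highest (bars to the right) and root-lowest (bars to the left), in percent, with the number tested in parentheses and dashed lines at the shares over all genes tested (4.68% and 3.18%). Laccases (55.6%) and class III peroxidases (37.8%) lie farthest right, and the photosystem list (46.5%) and the cuticle list (34.5%) farthest left.

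The root-lowest genes were led by photosynthesis. Of 86 photosystem, antenna and electron transfer genes 49 were lower and 0 higher in root, with 40 root-lowest (46.5% against 3.18% of all genes) and a median of −4.64, or −4.83 with organs without counts at the floor. Leaf was the highest organ for all 40. With a library left out, 30 (without flower replicate 1) to 48 (without root replicate 2) were lower. In deposited TPM, the most abundant root-lowest gene in the other organs was CAB-151, an antenna protein that binds chlorophyll, at 50720 TPM in leaf, 288 in flower and 3510 in fruit. RBCS, the Rubisco small subunit of carbon fixation, followed at 38005 TPM in leaf, and PSBR and RCA1, a photosystem subunit and the activase of Rubisco, at 8892 and 7183 TPM.

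CAB-151 was at 3.51 and 57.3 CPM in root, 42752 and 22345 in leaf, 2834 and 1045 in fruit and 241 and 289 in flower, so that each root library lay below the 6 others. Its log2 difference was −6.39 (SE 1.52, edgeR adjusted p = 0.0393), and the call was lost in 7 of the 8 fits with a library left out (0.0609 to 0.0815), root replicate 2 being the exception. LHCB5, PSAH2, psbW and SEND33, the last a ferredoxin, showed the same spread between the root libraries, with 0.101 to 0.264 CPM in replicate 1 and 4.79 to 11.3 CPM in replicate 2, and their calls held without either root library and were lost without any other. PSBR, at 0.264 and 6.96 CPM in root, kept its call in 4 of the 8 fits. PSAL, a photosystem I subunit, was low in both root libraries at 0.304 and 0.582 CPM, against 5213 and 3569 CPM in leaf (−9.80, SE 0.98, edgeR adjusted p = 0.00371), and passed in each fit.

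**Figure D4:**
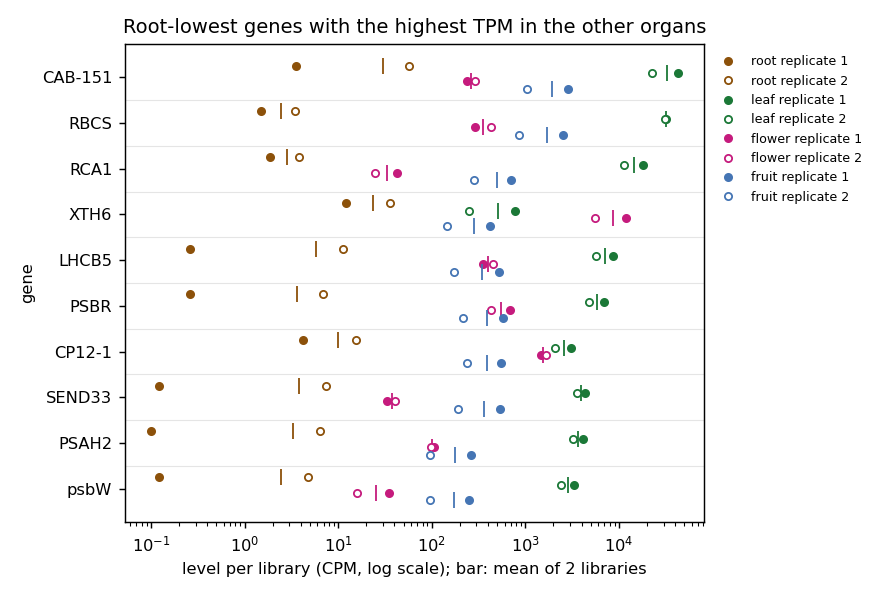
Levels of the 10 annotated root-lowest genes with the highest mean TPM over leaf, flower and fruit in the 8 libraries, in CPM on a log axis, with filled points for replicate 1, open points for replicate 2 and a bar at the mean of 2 libraries. Root lies lowest in all 10 with replicate 1 below replicate 2 (CAB-151 at 3.51 and 57.3 CPM), leaf lies highest in 9, and flower lies highest in XTH6 (11914 and 5537 CPM).

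Calvin cycle and photorespiration genes gave 19 lower and 1 higher of 43, with 13 root-lowest (30.2%), all with leaf as the highest organ, and a median of −1.96. RBCS was at 1.5 and 3.44 CPM in root, 31578 and 31408 in leaf, 2526 and 852 in fruit and 287 and 426 in flower (−10.07, SE 1.21, edgeR adjusted p = 0.00597). RCA1 (1.86 and 3.85 CPM in root, 18013 and 11268 in leaf; −7.77, SE 0.98) and GAPA, the plastid glyceraldehyde-phosphate dehydrogenase (1.24 and 1.47 CPM in root, 6758 and 5857 in leaf; −8.15, SE 0.82), showed the same order. All 3 passed in each fit. The higher member was TKL-2, a transketolase, which also serves the pentose phosphate pathway, at 76.8 and 38.2 CPM in root, 10.3 and 17.7 in fruit and at most 2.94 elsewhere (4.11, SE 0.55, edgeR adjusted p = 0.0079). The lower count was 11 without root replicate 1.

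Chlorophyll and carotenoid synthesis gave 11 lower and 1 higher of 35, with 5 root-lowest (14.3%). CHLH, the magnesium chelatase subunit at the branch to chlorophyll, was at 1.36 and 0.958 CPM in root, 1239 and 1304 in leaf, 49 and 23.4 in fruit and 87.6 and 187 in flower (−7.32, SE 0.70, edgeR adjusted p = 0.0034). PORA, which reduces protochlorophyllide, had 4.62 and 12.3 CPM in root and 1699 and 1217 in leaf (edgeR adjusted p = 0.0128, and 0.0622 without root replicate 1). HEMA1, at the start of the pathway, differed by less, with 21.3 and 15.8 CPM in root and 27.0 to 318 CPM elsewhere (−2.15, SE 0.41), and passed in 3 of the 8 fits with a library left out. An ID named CHLP, geranylgeranyl reductase, went the other way at 53.9 and 15.2 CPM in root and 1.52 to 8.71 CPM elsewhere (3.41, SE 0.52), a call lost without root replicate 1 (0.0847). Of the 35 genes 6 were lower without root replicate 1.

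Cutin and wax genes, which build the cuticle of the shoot, gave 11 lower and 0 higher of 29, with 10 root-lowest (34.5%) and a median of −3.42. Flower was the highest organ for 7 of the 10. CUT1, a very-long-chain fatty acid condensing enzyme of wax synthesis, was at 0.0811 and 0.325 CPM in root, 493 and 363 in leaf, 4.62 and 1.66 in fruit and 676 and 890 in flower (−8.93, SE 0.95, edgeR adjusted p = 0.00414). CER1, which makes wax alkanes, was abundant in flower alone, at 849 and 1805 CPM there, 0.973 to 4.87 CPM in leaf and fruit and 0.203 and 0.530 CPM in root (edgeR adjusted p = 0.0133, and 0.0723 without root replicate 1). CYP86A2 lay at the edge of the margin, 2.03-fold below fruit, at 0.366 and 0.781 CPM there. CER3, a partner of CER1, had 0 and 0.0684 CPM in root and 9.15 to 257 CPM elsewhere, 402-fold below fruit. Without root replicate 1, 6 of the 29 were lower, and the summed level of the list was 259 and 317 CPM in root, 443 and 364 in fruit, 1363 and 1544 in leaf and 6457 and 7189 in flower.

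Regulators of shoot and floral organs gave 14 lower and 2 higher of 39, with 11 root-lowest (28.2%) and a median of −3.06. DEFA (comp20901_c0), a MADS-box factor of petal and stamen identity, was at 0 and 0.103 CPM in root, 2.19 and 0.805 in leaf, 3.51 and 7.10 in fruit and 177 and 123 in flower (−7.54, SE 1.07, edgeR adjusted p = 0.00913). TCP2 and TCP5, TCP factors of leaf and petal growth, stood at 2.09 and 10.5 and at 0 and 0.411 CPM in root, against 20.4 to 129 and 1.36 to 77.9 CPM elsewhere. TCP2 lost its call in 7 and TCP5 in 6 of the 8 fits with a library left out. The higher genes were KAN2, a regulator of organ polarity, at 12.9 and 9.31 CPM in root and 2.23 to 5.79 CPM elsewhere (1.74, SE 0.32), and AGL80, named after its values were seen. The call of KAN2 was lost without either root library (edgeR adjusted p = 0.14 and 0.0545), either leaf library or fruit replicate 2 (0.0522 to 0.0599). The count of lower genes was 9 without root replicate 1.

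Light and clock regulators gave 9 lower and 1 higher of 54, with 7 root-lowest (13%) and a median of −0.36 (0.01 under total scaling). PHOT1, a blue-light receptor kinase, was at 10.7 and 20.9 CPM in root, 464 and 366 in leaf, 114 and 66.4 in fruit and 164 and 280 in flower (−3.68, SE 0.52, edgeR adjusted p = 0.00898). STO, a B-box factor of light response, had 1.40 and 3.68 CPM in root and 7.76 to 178 CPM elsewhere (−4.51, SE 0.56). Phytochrome went the opposite way: PHYA1, the far-red receptor of dark-grown tissue, was root-highest at 111 and 50.5 CPM in root, 8.98 and 9.02 in leaf, 3.09 and 10.5 in fruit and 2.54 and 1.42 in flower (4.02, SE 0.48, edgeR adjusted p = 0.00577). These 3 genes passed with each library left out, while COL4, at 29.7 and 14.7 CPM in root and 840 and 467 CPM in flower, passed in 3 of 8. Without leaf replicate 1, 5 of the 54 were lower, and without root replicate 2, 11.

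The largest margins among root-lowest genes with at least 10 CPM in every other organ included those of several plastid proteins. CDSP32, a thioredoxin of the chloroplast stress response, had 0 and 0.137 CPM in root, 1810 and 1325 in leaf, 108 and 36 in fruit and 187 and 117 in flower, 1055-fold below fruit. GAPB, the partner of GAPA, was at 0.0203 and 0.188 CPM in root and 26.5 to 2666 CPM elsewhere, 441-fold below flower, and an ID described as a thioredoxin (comp16549_c0) 444-fold below fruit. Each passed in every fit with a library left out. RBCS and PSAL were also among the 10, at 144-fold and 139-fold below flower, as were ERF061, CER3, ABCB2 and FRO7. The last, MLP423, of the major latex protein family, was a flower gene here, at 1830 and 4245 CPM in flower, 0.973 and 21.7 in leaf, 0.498 and 70.0 in fruit and 0.0405 and 0.0171 in root. It rested on 3 root counts (393-fold below leaf, 95% counting interval 134 to 1905), and its edgeR adjusted p of 0.0496 was lost without either root, leaf or flower library (0.0593 to 0.217).

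At the edge of the margin, the annotated genes just inside on the high side were dst1, at 40.0 and 37.1 CPM in root and 19.3 and 19 CPM in fruit, 2.01-fold, and PARP1, 2.03-fold above leaf. Just outside lay At1g06620, at 212 and 434 CPM in root and 222 and 102 CPM in fruit, 1.99-fold, and the laccase LAC9, 1.98-fold above fruit. On the low side NFYB2 and At5g47840 lay just inside, 2.01-fold below fruit and 2.02-fold below flower, and RALF and GDH1 just outside, 1.99-fold below leaf and 1.98-fold below fruit. Fruit was the nearest organ in 5 of these 8 genes. With a library left out, At1g06620 and RALF passed in all 8 fits and dst1 in 7, while PARP1 and LAC9 lost their calls in 5 and NFYB2, At5g47840 and GDH1 in 7.

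The 2 root libraries differed from each other in a way that followed the gene lists. Over all root-highest genes 797 were higher in replicate 1 and 511 in replicate 2, with a median log2 ratio of replicate 1 to replicate 2 of 0.41. A difference of at least 4-fold in favour of replicate 1 was seen in 15% of root-highest and 7.07% of all genes tested, and in favour of replicate 2 in 14.0% and 12.3%. Root-highest members were higher in replicate 1 for 11 of 11 starch genes, 27 of 30 heat shock genes, 32 of 34 histone and replication genes, 12 of 12 silencing genes and 16 of 20 ABC transporters. They were higher in replicate 2 for 5 of 6 suberin genes, 10 of 14 peroxidases, 9 of 14 ion and water transporters and 5 of 6 germin-like and storage protein genes. P450 genes (14 and 15) and UDP-glycosyltransferases (6 and 6) divided evenly. Of the 889 root-lowest genes, 235 were higher in replicate 1 and 121 had no count in either root library. The rest were higher in replicate 2. The labels give no difference between the 2 root samples, and the part that depth, tissue make-up or RNA quality has in these differences was not tested.

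**Figure D5:**
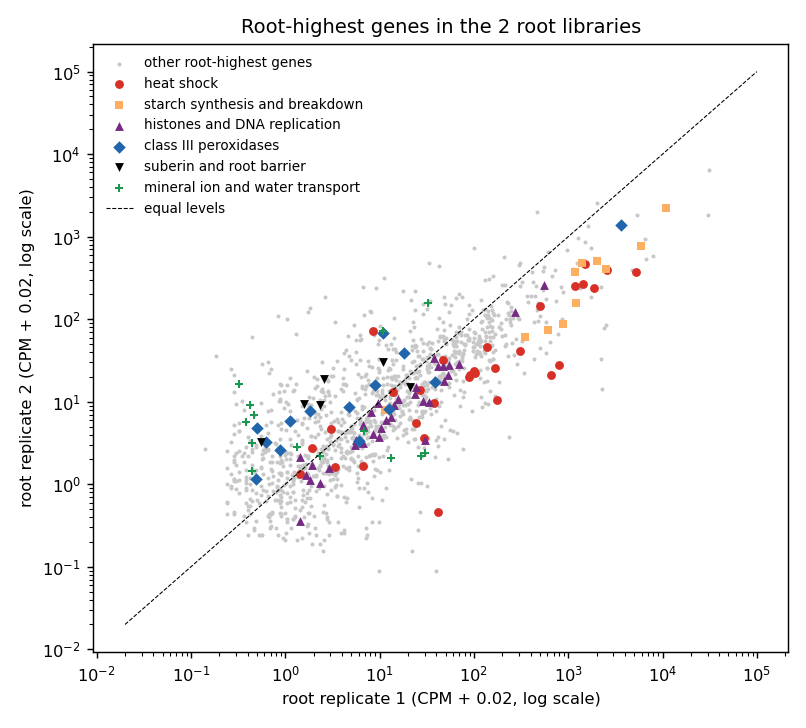
Level of each root-highest gene in root replicate 1 (x axis) and root replicate 2 (y axis), in CPM plus 0.02 on log scales, with 6 gene lists marked and a dashed line at equal levels. The 11 starch genes and 27 of 30 heat shock genes lie below the line, and 10 of 14 peroxidases and 5 of 6 suberin genes above it.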

How the data were processed

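RNA was measured in 2 libraries each of root, leaf, flower and fruit. Per the file headers, the authors deposited estimated counts per gene of a de novo assembly, with TPM and RPKM. The deposited RPKM were not used. The sources used here do not name the assembler, aligner or counting tool. Names and descriptions come from the deposited table and from other plants, several IDs can share one, and near-identical copies or antisense transcripts may share counts. Without a genome, genes have no coordinates.

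Rounded counts went into the quasi-likelihood test of edgeR (edgeR 4.0.16, limma 3.58.1, R 4.3.3), with TMM scaling, filterByExpr by organ (27939 genes kept, 2238 removed) and one fit of 8 libraries, two-sided, Benjamini-Hochberg adjusted over all genes tested; 7781 genes had an unadjusted p under 0.05. The fit had 4 residual degrees of freedom and a common biological coefficient of variation of 0.667. Each standard error is the log2 difference over the square root of F. An organ without counts was set to 3 counts over its 2 libraries and its folds are bounds; intervals from 1 to 3 counts are exact Poisson intervals, and both cover counting error only. CPM use TMM-scaled sizes. The code was tested on simulated data.

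The members and the 34 gene lists, matched by words and KEGG numbers, were chosen with earlier results of these data known. The 163 named genes follow a rule: the 10 largest margins on each side at 10 CPM or more, the 10 highest TPM on each side, up to 3 genes of each list and side by mean CPM, and the 2 nearest the margin on either side. Alternatives were RLE size factors, total scaling without the 20 most abundant genes, DESeq2 1.42.0, no filter, limma on log2(TPM + 1) and log2(TPM + 0.1), a replicate block, leaving out fruit or each library, a 4-fold margin, and separation of the libraries.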

Additional observations from a re-analysis of the deposited data

How the results depend on the processing

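With 2 libraries per organ and 4 residual degrees of freedom, the counts of calls moved with the processing, and the cause was not tested except where an alternative itself has fewer samples. The main counts were 1971 higher, 1527 lower, 1308 root-highest and 889 root-lowest genes. Total scaling without the 20 most abundant genes gave 3158 higher genes. With limma on log2(TPM + 1) there were 3063 higher, 2022 root-highest and 487 root-lowest genes. DESeq2 called 3024 lower and 1451 root-lowest genes. Without fruit, 1552 genes were root-lowest, and under a 4-fold margin 539 were. Leaving out 1 library at a time gave 742 to 1507 higher, 617 to 1154 lower, 541 to 982 root-highest and 523 to 852 root-lowest genes, and 105 to 132 of the 163 named genes passed. No named gene changed sign under any alternative run. Of the root-highest genes, 2 had a negative log2 difference without root replicate 1. Lists with more higher than lower genes numbered 27 of 34, and 20 to 26 with a library left out. Over all genes tested 56.3% of the calls were higher too, and the lists were chosen with earlier results known. Some lists with more higher than lower genes had a negative median log2 difference. These were cytosolic ribosomal proteins (−0.10), ion and water transport (−0.11), pectin and xyloglucan enzymes (−0.20) and seed storage (−1.14). Replicates 1 and 2 are numbered alike in every organ, but the labels do not say that a number pairs samples. Deviations from the organ means correlated at 0.384 to 0.489 among root, leaf and flower and at −0.156 to 0.101 with fruit. A fit with the replicate number as a block called 1561 higher, 1397 lower, 1035 root-highest and 808 root-lowest genes, and 143 of the 163 named genes passed in it.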
